A study of Homo sapiens with 4 samples.

Results

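The genes described here are 31 genes of the ATF4 stress response and of cytosolic tRNA charging, picked by symbol from a table of 23143 gene symbols measured in A549 cells, an established human lung adenocarcinoma line. All 31 symbols were found, and all 31 passed the filter for testing (mean of at least 1 FPKM over the libraries), among 12504 genes that did. FPKM are fragment counts divided by transcript length and by library size, so levels of different genes can be set side by side on that scale. None of the 31 passed the test between cells with and without doxycycline, where 0.0240% of all tested genes were called higher and 0.0640% lower, so this count says nothing particular about them. In 24 of them (77.4%) noDOX library 1 was above noDOX library 2 and DOX library 2 above DOX library 1, an order that 41.5% of all tested genes had.

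ATF4 is a transcription factor of the integrated stress response. When amino acids run short, proteins misfold in the endoplasmic reticulum or haem is lacking, kinases phosphorylate the initiation factor eIF2, general translation falls and ATF4 protein is made through upstream reading frames in its own message. ATF4 then raises genes for amino acid uptake and synthesis, for tRNA charging and, through DDIT3 (CHOP), for stress-linked cell death. In lung adenocarcinoma cells this programme is known for supplying serine, glycine and asparagine.

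Polyadenylated RNA of A549 cells, named A549i in the design text, was sequenced in 4 libraries. There were 2 noDOX libraries, given vehicle and labelled with a normal level of GATA4, and 2 DOX libraries, given doxycycline and labelled with overexpressed GATA4, a zinc finger transcription factor. The sources used here do not give the dose and time of doxycycline, the promoter or the number of clones. Doxycycline-treated cells without the GATA4 construct were not analysed here, so effects of the drug and of GATA4 cannot be told apart. The comparison asks which of these transcripts differ between the DOX libraries, labelled with overexpressed GATA4, and the noDOX libraries. Where 4 FPKM values follow a gene, they stand for noDOX library 1, noDOX library 2, DOX library 1 and DOX library 2, in that order.

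GATA4 was at 12.2, 14.5, 75.0 and 48.0 FPKM, so both DOX libraries were higher, as labelled, with a log2 difference of 2.09 (SE 0.30; limma, adjusted p = 0.289). Of the 6 epithelial markers, all reached 1 FPKM in at least 1 library, and their summed level was 4121 to 8273 FPKM, most of it the keratins KRT8 and KRT18. Endothelial markers summed to 0.116 to 0.192 FPKM, fibroblast markers to 2.06 to 9.63 FPKM and blood markers to 10.7 to 24.5 FPKM, the last mostly CD68, a lysosomal protein gene. DCN and CD3E were listed at 0 in every library. The absolute depth is not given, but among 741 to 767 genes with very low values, the commonest ratio to noDOX library 1 was shared by 26.4 to 30.1%. If that is the ratio of equal fragment counts, the other libraries were 1.15, 1.10 and 0.727 times as deep, in the order given above. The libraries did not sort first by group. In 33.1% of all tested genes noDOX library 1 and DOX library 2 held the highest values, and in 26.9% they held the lowest. In 14.7% both DOX libraries were above both noDOX libraries, and in 17.3% both were below.

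The site that ATF4 binds with C/EBP partners is shown for the genes whose windows hold it, to set its spelling beside their levels. It was searched as TGATGNAA on both strands of RefSeq promoter windows on GRCh38.p14, each from 250 bases before to 50 bases after an annotated start. Of the 31 genes, 25 had a window, and PSPH, SHMT2, ALDH1L2, PYCR1, GPT2 and NUPR1 had none in the table. The motif was in a window of 8 of those 25 genes (32.0%), against 4.46% of 27305 genes and 3.62% of 35116 windows. A match describes the letters only. Each line gives 30 bases of the gene's strand, 5′ to 3′, with the match in capitals.
CHAC1, chr15:40953251-40953280, plus strand: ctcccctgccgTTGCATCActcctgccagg
ASNS, chr7:97872458-97872487, minus strand: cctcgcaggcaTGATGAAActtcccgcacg
CEBPG, chr19:33374060-33374089, plus strand: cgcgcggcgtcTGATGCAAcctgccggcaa
CARS, chr11:3057407-3057436, minus strand: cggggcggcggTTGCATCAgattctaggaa
GARS, chr7:30594834-30594863, plus strand: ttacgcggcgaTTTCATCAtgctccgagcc
MARS, chr12:57488053-57488082, plus strand: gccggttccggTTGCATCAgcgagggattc
AARS, chr16:70289675-70289704, minus strand: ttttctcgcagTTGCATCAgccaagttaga
NARS, chr18:57621804-57621833, minus strand: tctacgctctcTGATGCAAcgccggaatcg

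The match read TGATG from left to right on the gene's strand in ASNS, CEBPG and NARS, and on the other strand in the remaining 5 genes. Counted from 1 at the start, the first base in capitals was at -68 in ASNS, -209 in CHAC1, -187 in AARS, -42 in CEBPG and -33 in GARS. In CARS and MARS the match spanned the start, and in NARS it began at base 15. The ASNS match lies in the nutrient-sensing response element known for that gene. Of the 8, 5 encode tRNA synthetases. In all 8 genes noDOX library 1 was above noDOX library 2 and DOX library 2 was above DOX library 1, and so it was in 13 of the 17 genes whose windows lacked the letters. The median difference between DOX and noDOX was -0.02 on the log2(FPKM + 1) scale for the 8 genes and -0.43 for the 17. Since 5 of the 8 encode synthetases, role and motif cannot be told apart in these medians, and their difference was not tested.

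Between DOX and noDOX, 0 of the 31 genes passed in either direction (limma on log2(FPKM + 1), Benjamini-Hochberg adjusted p of 0.566 to 0.999). Over all tested genes 0.0240% were called higher and 0.0640% lower. An unadjusted p under 0.05 was found for 4 of the 31, CEBPB, VLDLR, PSPH and CTH, which is 12.9% against 6.34% of all tested genes. Mean log2 values were lower with doxycycline in 19 genes and higher in 12, against 56.1% lower and 43.9% higher among all tested genes. The median difference of the 31 genes was -0.11 against -0.04 for all tested genes. The sign of this median depended on the library set. It was 0.28 without noDOX library 1, -0.50 without noDOX library 2, 0.21 without DOX library 1 and -0.49 without DOX library 2. In 5 genes, CEBPB, DDIT4, VLDLR, CTH and SHMT2, the DOX libraries were the lowest pair, 16.1% against 17.3% of all tested genes. PSPH alone had both DOX libraries above, against 14.7% of all tested genes. The counts of genes without overlap were thus near or under those of the whole table. An exact permutation test of 2 against 2 libraries cannot go below p = 0.33, and nothing in the labels says that the replicates were separate cultures, so p-values measure the spread between these libraries only.

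**Figure D1:**
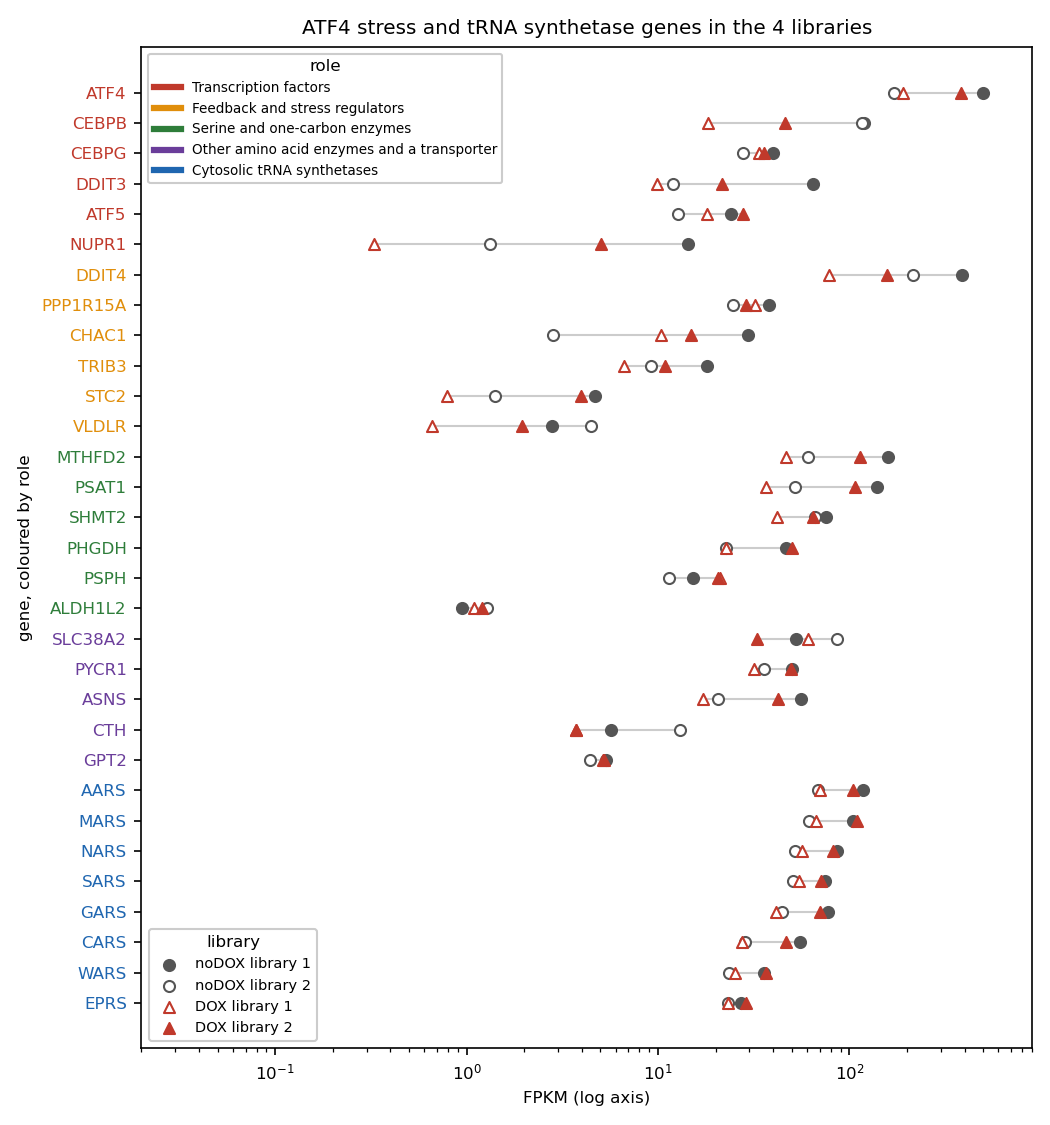
FPKM of the 31 genes (log axis) in each of the 4 libraries, with genes coloured and ordered by role and a grey line from the lowest to the highest library. In most rows the filled symbols, noDOX library 1 and DOX library 2, lie to the right of the open ones, and the 8 synthetase rows all show this order.

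Of the transcription factors, ATF4 itself had the highest level, at 500, 172, 191 and 382 FPKM. Its group means were 336 ± 232 and 287 ± 135 FPKM (SD, n = 2 each), and they differed by -0.12 on the log2 scale (SE 0.68; limma, adjusted p = 0.999; 0.00 after quantile normalization). The groups overlapped, with each holding 1 high and 1 low library, and noDOX library 1 was 2.91 times noDOX library 2. DDIT3, the CHOP factor induced by ATF4, was at 64.8, 12.0, 9.92 and 21.5 FPKM. Only noDOX library 1 stood well above the others, 5.39 times noDOX library 2, and the log2 difference between groups was -0.90 (SE 0.87). NUPR1, a small stress-induced chromatin protein, was at 14.3, 1.33, 0.330 and 5.01 FPKM. It had the same order of libraries as DDIT3, with ratios within groups of 10.7 and 15.2.

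CEBPB, a C/EBP family factor that pairs with ATF4, had the largest difference between groups of the 31 genes. It was at 119, 117, 18.3 and 46.2 FPKM, with means of 118 ± 1 FPKM in noDOX and 32.3 ± 19.8 FPKM in DOX libraries (SD, n = 2 each). The noDOX libraries lay close together and both DOX libraries were below them, 0.273 times as high on average. The log2 difference was -1.98 (SE 0.49), and it missed the threshold over all tested genes (limma, adjusted p = 0.566). Leaving out 1 library at a time it ran from -2.63 to -1.33. CEBPG, its relative without an activation domain of its own, was at 39.8, 27.7, 33.6 and 35.9 FPKM, with the DOX libraries between the noDOX libraries. ATF5, a factor close to ATF4, was at 24.1, 12.7, 18.1 and 27.7 FPKM. Its groups overlapped, and they differed by 0.34 on the log2 scale (SE 0.40).

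The feedback and stress regulators differed from one another. DDIT4 (REDD1), which restrains mTORC1, was at 388, 214, 78.1 and 157 FPKM. Its group means were 301 ± 123 and 118 ± 56 FPKM (SD, n = 2 each), without overlap, and its log2 difference of -1.37 (SE 0.52) missed the threshold (limma, adjusted p = 0.791). VLDLR, a lipoprotein receptor that ATF4 and CHOP can raise, was at 2.80, 4.47, 0.659 and 1.94 FPKM. Both DOX libraries were again the lower ones, with a log2 difference of -1.05 (SE 0.38; limma, adjusted p = 0.756).

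CHAC1, which breaks down glutathione, was at 29.4, 2.84, 10.4 and 14.8 FPKM. The noDOX libraries were its highest and its lowest, 10.3-fold apart, so the group means of 16.1 ± 18.8 and 12.6 ± 3.1 FPKM (SD, n = 2 each) say little about doxycycline. The log2 difference of CHAC1 was 0.31 (SE 1.02), opposite in sign to the difference of these means. Without noDOX library 2 the log2 difference was -1.18, and without noDOX library 1 it was 1.80. TRIB3, a pseudokinase that restrains ATF4 and AKT, was at 18.1, 9.16, 6.65 and 10.9 FPKM, and STC2, a secreted glycoprotein, at 4.68, 1.41, 0.788 and 3.95 FPKM. In both genes noDOX library 1 was highest and DOX library 1 lowest, and the log2 differences of -0.54 (SE 0.41) and -0.31 (SE 0.67) were within the spread of the libraries. PPP1R15A (GADD34), the subunit that directs a phosphatase to eIF2, was at 38.2, 24.8, 32.2 and 28.7 FPKM, with the DOX libraries between the noDOX libraries.

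**Figure D2:**
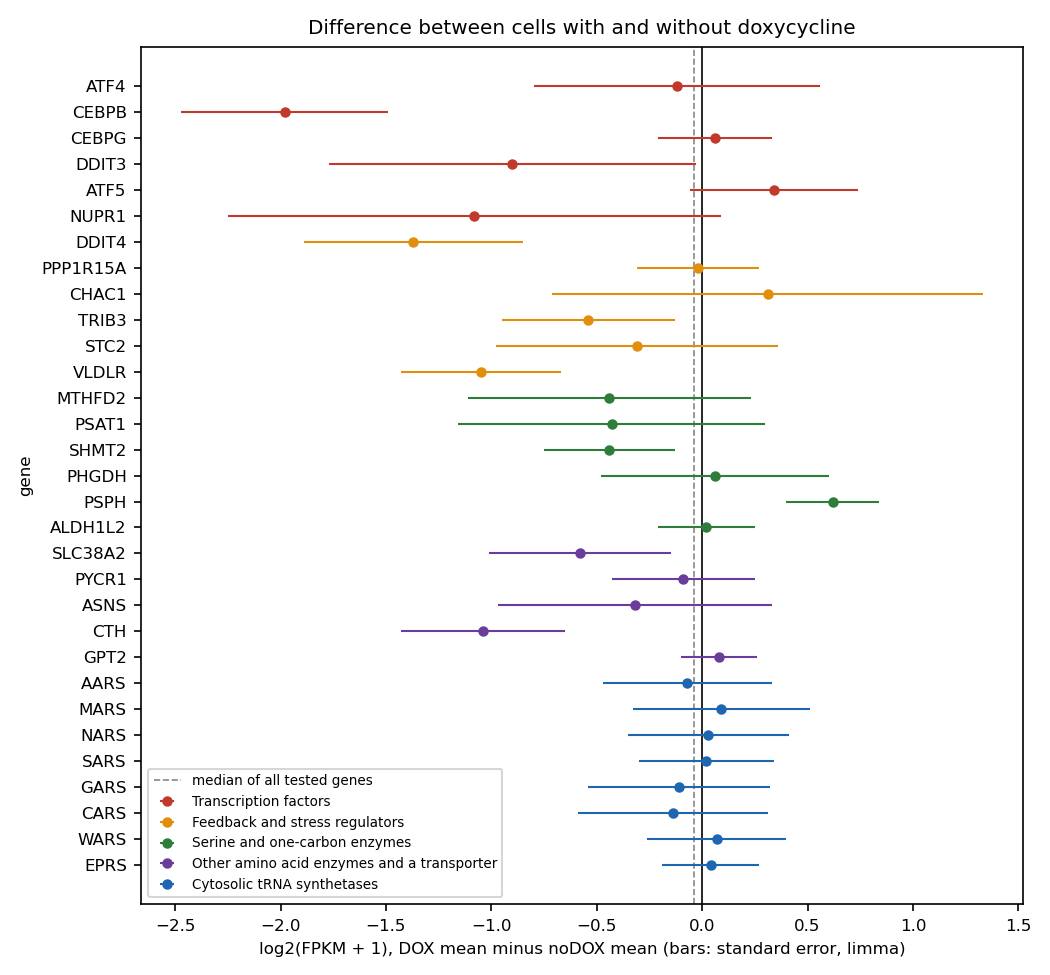
Difference of mean log2(FPKM + 1) between DOX and noDOX for each gene, with limma's standard error as the bar and the median of all tested genes as a dashed line at -0.04. The synthetases sit between -0.14 and 0.09, while CEBPB, DDIT4, VLDLR, CTH and PSPH lie more than 2 standard errors from 0 and none passed the adjusted threshold.

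Of the 6 enzymes of serine synthesis and the mitochondrial folate cycle, PSAT1, MTHFD2 and PHGDH had wide gaps within both groups, and the other 3 had smaller ones. PSAT1, the aminotransferase of serine synthesis, was at 139, 51.8, 36.7 and 107 FPKM, and the groups overlapped in part, with a noDOX library highest and a DOX library lowest. MTHFD2, the mitochondrial methylene-tetrahydrofolate dehydrogenase, was at 159, 60.6, 46.4 and 113 FPKM. PHGDH, which makes the first step of serine synthesis, was at 46.4, 22.7, 22.8 and 50.4 FPKM. In all of these 3 genes noDOX library 1 and DOX library 2 were more than 2-fold above their partners, and the log2 differences between groups were -0.43, -0.44 and 0.06 with standard errors of 0.73, 0.67 and 0.54.

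PSPH, the phosphatase that completes serine synthesis, did not follow them. It was at 15.3, 11.4, 21.0 and 20.7 FPKM, with means of 13.4 ± 2.7 FPKM in noDOX and 20.8 ± 0.2 FPKM in DOX libraries (SD, n = 2 each). Both DOX libraries were above both noDOX libraries, with a log2 difference of 0.62 (SE 0.22) that missed the threshold (limma, adjusted p = 0.758). A pseudogene copy, PSPHP1, can share reads with it. SHMT2, the mitochondrial serine hydroxymethyltransferase, was at 75.7, 66.1, 41.8 and 64.7 FPKM, where only DOX library 1 stood apart, and the log2 difference was -0.44 (SE 0.31). ALDH1L2, a mitochondrial formyltetrahydrofolate dehydrogenase, was near the filter at 0.951, 1.28, 1.09 and 1.20 FPKM, and its groups overlapped.

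Among the other amino acid genes, ASNS, asparagine synthetase, was at 55.9, 20.6, 17.2 and 42.2 FPKM. Its group means of 38.2 ± 24.9 and 29.7 ± 17.7 FPKM (SD, n = 2 each) differed by less than their spread. PYCR1, the mitochondrial enzyme that completes proline synthesis, was at 50.3, 35.6, 31.9 and 49.7 FPKM, in the same order of libraries. CTH, which makes cysteine from cystathionine, was at 5.71, 13.1, 3.71 and 3.71 FPKM. Here noDOX library 2 was the highest, both DOX libraries were below both noDOX libraries, and the log2 difference was -1.04 (SE 0.39; limma, adjusted p = 0.786). GPT2, the mitochondrial alanine aminotransferase, was nearly flat at 5.35, 4.39, 5.20 and 5.16 FPKM. SLC38A2, the amino acid transporter SNAT2, was at 52.7, 86.3, 60.6 and 33.1 FPKM, and was the 1 gene of the 31 with noDOX library 2 above noDOX library 1 and DOX library 1 above DOX library 2.

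Cytosolic tRNA synthetases, which load amino acids on tRNAs, had the narrowest differences between groups. The log2 differences of all 8 lay between -0.14 and 0.09 with a median of 0.02. Their standard errors ran from 0.23 for EPRS to 0.45 for CARS. The groups overlapped in all 8, while 14.7% of all tested genes had both DOX libraries above and 17.3% both below. Of the 8, 0 had an unadjusted p under 0.05 (limma), against 6.34% of all tested genes. With 8 genes, these counts say nothing particular about the synthetases. AARS, for alanine, was at 118, 68.3, 70.0 and 105 FPKM, and MARS, for methionine, at 105, 61.5, 66.7 and 109 FPKM. GARS, for glycine, was at 77.0, 44.3, 41.4 and 70.6 FPKM, and NARS, for asparagine, at 86.4, 51.9, 56.9 and 81.8 FPKM. In each of these noDOX library 1 and DOX library 2 were the higher pair, and so they were in the other 4. SARS, for serine, was at 74.5, 50.8, 54.4 and 71.4 FPKM. WARS, for tryptophan, was at 35.8, 23.4, 25.3 and 36.7 FPKM. CARS, for cysteine, was at 55.1, 28.4, 27.5 and 46.9 FPKM and had the largest ratio of the 8 within noDOX, 1.94. EPRS, the fused glutamate and proline enzyme, was at 27.3, 23.1, 23.1 and 29.0 FPKM and had the smallest ratios, 1.18 within noDOX and 1.26 within DOX. Summed over the 8 genes the level was 579, 352, 365 and 550 FPKM.

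The gaps between libraries of one group followed a shared order in most of these genes. In 27 of the 31 (87.1%) the gap within a group was larger than the difference between groups, against 77.4% of all tested genes. Values in noDOX library 1 exceeded those in noDOX library 2 in 27 genes, with a median log2 difference of 0.76 against 0.02 for all tested genes. DOX library 1 minus DOX library 2 had a median of -0.63 against -0.02, with DOX library 2 the higher in 27 genes. Both orders held together in the 24 genes counted above, which were all 6 transcription factors, all 8 synthetases, 4 of 6 feedback genes, 4 of 6 serine and folate enzymes and 2 of the 5 other amino acid genes. By role the median gap within noDOX was 1.21 for the transcription factors, 0.88 for the feedback genes, 0.74 for the synthetases, 0.70 for the serine and folate enzymes and 0.24 for the other amino acid genes. Within DOX the order of roles was different, with -1.02 for the transcription factors, -0.87 for the serine and folate enzymes, -0.73 for the feedback genes, -0.55 for the synthetases and 0.00 for the other amino acid genes. In 21 genes (67.7%) these libraries also held the highest pair of values, against 33.1% of all tested genes. These comparisons set single libraries side by side, so no test goes with them.

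Wide gaps were concentrated in fewer genes. noDOX library 1 was at least 2-fold above noDOX library 2, on the log2(FPKM + 1) scale, in 9 of the 31 genes, against 5.46% of all tested genes. DOX library 2 was at least 2-fold above DOX library 1 in 9 genes as well, against 2.80%. The genes past 2-fold in both groups numbered 7, against 1.37% of all tested genes, and were DDIT3, ASNS, PSAT1, PHGDH, MTHFD2, STC2 and NUPR1. This scale understates gaps of low genes, and 28 of the 31 genes had a mean of at least 5 FPKM. The shares of all tested genes were not matched for level. ATF4 was past 2-fold in the noDOX group, at 1.54, and just short of it in the DOX group. noDOX library 1 had the highest value in 21 of the 31 genes, against 35.1% of all tested genes. The lowest was in DOX library 1 in 16, against 32.2%, and in noDOX library 2 in 13, against 23.3%.

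**Figure D3:**
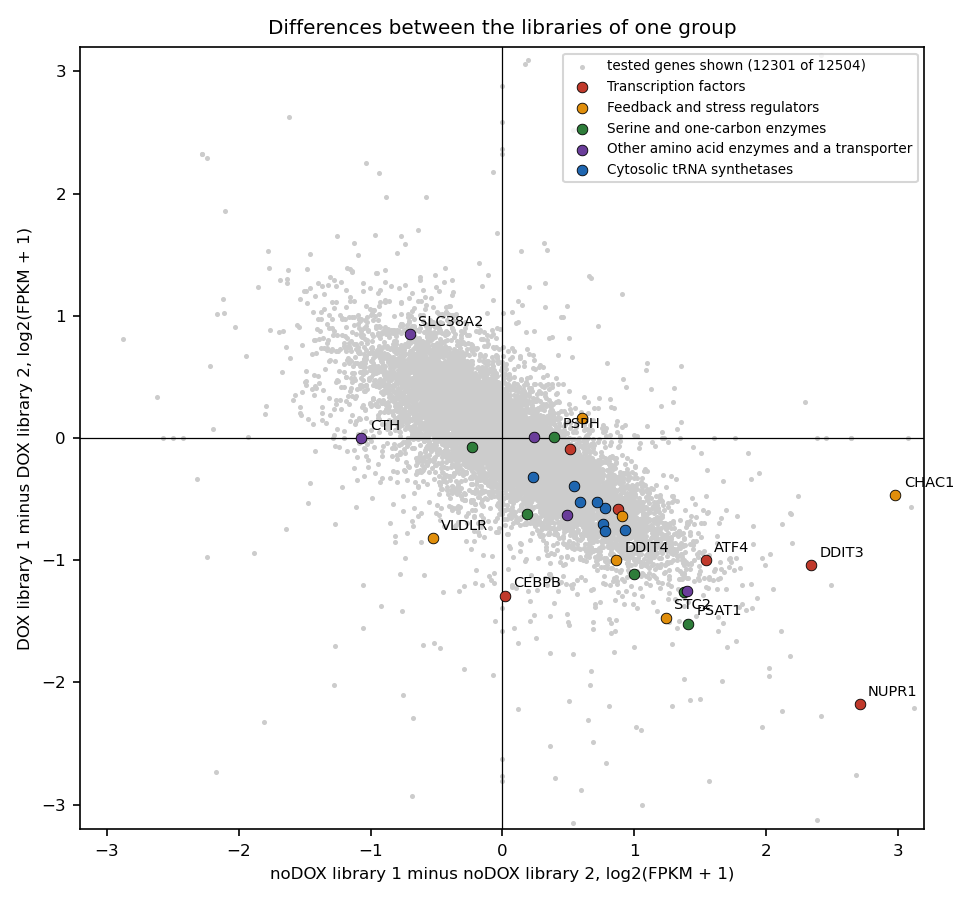
Difference on the log2(FPKM + 1) scale between the noDOX libraries (horizontal) and between the DOX libraries (vertical), for the 31 genes in colour by role and for other tested genes in grey, of which 12301 of 12504 lie within the axes. The lower right part, where noDOX library 1 and DOX library 2 are higher, holds 24 of the 31 genes, with SLC38A2 alone in the upper left.

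Transcript length moved with the same library differences across the whole table. A length, that of the longest annotated transcript of the gene, was known for 11102 of the tested genes. The transcript mainly expressed in these cells can be shorter, so a gene can sit in too long a group. In the fifth of them with the shortest transcripts (up to 1995 bases), the median of noDOX library 1 minus noDOX library 2 was 0.50 and that of DOX library 1 minus DOX library 2 was -0.39. Among the fifth with the longest (5801 bases or more) the medians were -0.28 and 0.25. The 6 members with the shortest transcripts, DDIT3, DDIT4, CHAC1, PYCR1, CEBPB and SARS, had medians of 0.70 and -0.82, and the 9 of 1997 to 2969 bases had 0.88 and -0.64 against 0.17 and -0.17. Members with transcripts of 2970 to 4165 bases, PHGDH, SHMT2, CEBPG, WARS, MARS, AARS and NARS, had medians of 0.72 and -0.57, against 0.03 and -0.03 for all genes of that length. Those of 4167 to 5800 bases, MTHFD2, STC2, CARS, GPT2, NUPR1, SLC38A2 and EPRS, had 0.93 and -0.75 against -0.14 and 0.10. ALDH1L2 and VLDLR, the 2 members with the longest transcripts, had -0.38 and -0.45, so within noDOX they were near all genes of that length. Once a smooth trend with length was taken out of each library, a step added after the data were seen, the medians of the 31 genes were 0.57 and -0.52. Both orders then held in 25 of the 31 genes, against 36.4% of 11102 genes with a length. After quantile normalization of the libraries the medians were 0.39 and -0.48, and both orders held in 23 genes. The sum of FPKM outside small RNA genes moved the same way, at 900263, 575373, 568294 and 755157, and the 31 genes took 0.270, 0.230, 0.185 and 0.235% of it. What set the libraries apart was not tested.

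**Figure D4:**
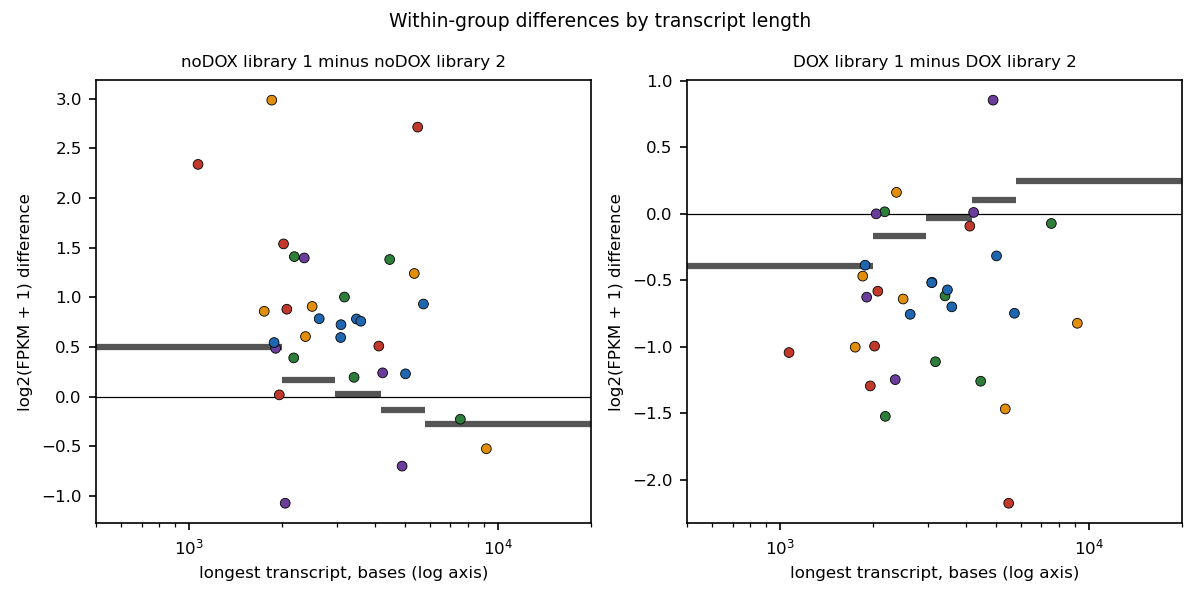
Difference between the libraries of one group on the log2(FPKM + 1) scale against the longest annotated transcript in bases (log axis), with noDOX on the left and DOX on the right. Points are the 31 genes coloured by role, and grey bars are the medians of the 11102 tested genes with a length, in 5 bins, from 0.50 to -0.28 on the left and from -0.39 to 0.25 on the right.

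The rest of the pathway was read from lists of other genes, of which 0 passed in either direction in any list. Among 13 genes upstream, the eIF2 kinases and their regulators, eIF2 and eIF2B subunits and a phosphatase subunit, the median log2 difference was 0.06. PPP1R15B, the constitutive partner of GADD34's phosphatase, was at 5.33, 7.66, 16.8 and 7.90 FPKM, high in DOX library 1 only (limma, adjusted p = 0.947). EIF2AK3 (PERK), the kinase of the endoplasmic reticulum, was at 3.12, 3.63, 5.02 and 3.86 FPKM. Both orders of libraries, with noDOX library 1 and DOX library 2 the higher, held in 7 of these 13 genes and the opposite in 5.

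Other targets of ATF4, 24 tested of 27, had a median log2 difference of 0.02 between groups. VEGFA, an angiogenic factor, was at 16.8, 16.4, 42.5 and 31.3 FPKM, which on the log2 scale is 1.09 (SE 0.24; limma, adjusted p = 0.520). ATF3, a repressor induced with CHOP, was at 10.9, 7.40, 2.17 and 3.88 FPKM, which on the log2 scale is -1.34 (SE 0.31; limma, adjusted p = 0.532). The DOX libraries of VEGFA were both higher and those of ATF3 both lower, so these ATF4-linked genes lay on opposite sides. GDF15 was at 240, 189, 166 and 122 FPKM, also with both DOX libraries lower and a log2 difference of -0.58 (SE 0.33). Of the 24, both DOX libraries were above both noDOX libraries in 3, against 14.7% of all tested genes. They were below in 2, against 17.3%. Both library orders held in 15 of the 24 genes. EIF4EBP1, a translation repressor named here after its values were seen, had the order of ASNS, at 204, 102, 68.8 and 178 FPKM.

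For tRNA charging, the 13 other cytosolic synthetases had a median log2 difference of -0.06 between groups. Their median gaps were 0.38 within noDOX and -0.47 within DOX, and both orders held in 10 of the 13. QARS, the glutamine enzyme, named after its values were seen, was flat at 85.2, 85.4, 81.4 and 81.0 FPKM. TARSL2, a threonyl enzyme paralog, was at 2.55, 3.05, 3.89 and 5.23 FPKM, with both DOX libraries higher (limma, adjusted p = 0.831). The scaffold genes AIMP1, AIMP2 and EEF1E1 had the library order of the 8 synthetases, with EEF1E1 at 68.5, 34.1, 32.9 and 51.4 FPKM. The 17 mitochondrial synthetases differed less between libraries, with median gaps of 0.15 and -0.17, and both orders held in 12 of them.

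Other folate and one-carbon genes, 15 tested of 16, had a median log2 difference of -0.08. GLDC, which cleaves glycine, was at 8.43, 9.33, 13.1 and 16.2 FPKM, with both DOX libraries higher (limma, adjusted p = 0.671). MTHFD1L, the mitochondrial formate-releasing enzyme, was at 21.3, 19.1, 10.6 and 15.9 FPKM, with both lower (adjusted p = 0.861). Of 13 tested genes in a list of other amino acid metabolism, PRODH, proline dehydrogenase, was at 4.24, 5.05, 1.54 and 1.89 FPKM (limma, adjusted p = 0.455). ASS1, argininosuccinate synthase, was at 6.26, 12.5, 3.59 and 2.97 FPKM, and in PRODH and ASS1 both DOX libraries were lower. In that list both orders held in 5 genes and the opposite in 5.

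Genes of the IRE1 and ATF6 arms, the other branches of the unfolded protein response, were split between the library orders. The 16 genes had median gaps of -0.02 within noDOX and -0.03 within DOX, and the orders split into 8 genes with noDOX library 1 and DOX library 2 higher and 7 with the opposite. XBP1, the factor of the IRE1 arm, was at 81.5, 68.3, 52.6 and 62.6 FPKM, with both DOX libraries lower (limma, adjusted p = 0.990). DNAJB9, a chaperone that XBP1 raises, was at 9.20, 9.18, 7.10 and 7.74 FPKM (limma, adjusted p = 0.986). CRELD2 was at 35.8, 26.6, 35.0 and 38.9 FPKM, with overlapping groups and a log2 difference of 0.25 (SE 0.25). Between groups, 8 genes of the list were higher with doxycycline and 8 lower, with a median log2 difference of -0.01. The difference between this list and the 31 genes was not tested.

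Overlapping genes limit some of these values, since the sources used here do not say whether strand was used. In GENCODE release 29, 14 of the 31 genes share exon bases with another gene, 13 of them with a gene on the other strand. DDIT3 and MARS share 355 exon bases with each other. Pseudogenes named for the gene exist for 10 of the 31, among them ATF4, ASNS, PSAT1 and MTHFD2, and can share reads with it.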

How the data were processed

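The authors deposited FPKM for each gene and library, without counts. The submitters' processing notes name hg19, TopHat2 2.0.10 with Bowtie, and Cuffdiff with Cufflinks 2.2.1. The sources used here do not give the annotation, the strand setting or the scaling between libraries. Differences were computed on log2(FPKM + 1), so they understate changes of low genes. The filter was a mean FPKM of 1 or more, and the test was limma 3.58.1 (R 4.3.3) with a trended prior variance, 2 residual degrees of freedom, two-sided p and Benjamini-Hochberg adjustment over all 12504 genes at 0.05. The test was also run on simulated data with independent noise in each gene. That setting lacks the library order seen here, so it does not vouch for the test on these data. Alternatives changed the pseudocount, filter, scaling, small RNA genes, variance prior, block and libraries. The members, the other lists and the alternatives were all chosen with earlier results of these data known. Of the alternatives, the crossed pairing and the length trend were not planned and were added after seeing the data. All members were named, and up to 3 genes with the smallest p per further list. Transcript lengths were those of the longest transcript of each symbol in GENCODE release 29 (88.8% of tested genes). A lowess trend on these lengths, with a span of 0.3, was removed. Older synthetase symbols were matched to current RefSeq ones through synonyms.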

Additional observations from a re-analysis of the deposited data

How the results depend on the processing

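None of the 31 genes passed under any of the alternatives run (limma), and their median difference kept its sign except without noDOX library 1 or DOX library 1, ranging from -0.50 to 0.28 over the fits that left out 1 library. Over all genes, 3 higher and 8 lower calls became 5 and 11 with a pseudocount of 0.1. They became 0 and 1 with no filter, and 1 and 0 without small RNA genes. With the replicate block they became 30 and 35. Deviations of same-numbered libraries from their group means correlated at -0.352 across 12504 genes, so these libraries tended to deviate in opposite directions. Since each group held 2 libraries, this was a single contrast and did not show whether equal numbers mark libraries prepared together. With the crossed pairing 2 genes were higher and 5 lower, and with the length trend removed 2 were higher and 5 lower. Leaving out 1 library gave 4 to 31 higher and 19 to 59 lower. The cause of these changes was not tested. With quantile normalization ATF4, AARS and PPP1R15A changed sign, to 0.00, 0.04 and 0.06. PPP1R15A was 0.01 with median ratio scaling, and with the length trend removed ALDH1L2, PYCR1 and PPP1R15A were -0.06, 0.03 and 0.06.

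In 8 of the 31 genes, CEBPB, DDIT4, VLDLR, CTH, PSPH, SHMT2, SLC38A2 and TRIB3, no alternative changed the sign, but leaving out 1 library moved the value. The log2 difference then ran from -2.63 to -1.33 for CEBPB, -1.87 to -0.87 for DDIT4, -1.46 to -0.64 for VLDLR, -1.58 to -0.51 for CTH, 0.42 to 0.81 for PSPH, -0.74 to -0.13 for SHMT2, -1.01 to -0.15 for SLC38A2 and -1.0 to -0.09 for TRIB3. The differences of the other 23 genes changed sign. They ran from -0.88 to 0.65 for ATF4, -0.10 to 0.78 for ATF5, -2.07 to 0.27 for DDIT3, -0.19 to 0.32 for CEBPG and -2.43 to 0.28 for NUPR1. They ran from -1.18 to 1.80 for CHAC1, -1.05 to 0.42 for STC2 and -0.32 to 0.28 for PPP1R15A. For enzymes they ran from -1.19 to 0.33 for PSAT1, -0.49 to 0.62 for PHGDH, -1.13 to 0.25 for MTHFD2, -0.09 to 0.13 for ALDH1L2, -1.02 to 0.38 for ASNS, -0.40 to 0.23 for PYCR1 and -0.04 to 0.20 for GPT2. For synthetases they ran from -0.46 to 0.32 for AARS, -0.60 to 0.33 for CARS, -0.22 to 0.37 for WARS, -0.25 to 0.29 for SARS, -0.50 to 0.28 for GARS, -0.29 to 0.47 for MARS, -0.34 to 0.39 for NARS and -0.12 to 0.20 for EPRS.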
